A study of Mus musculus with 12 samples.

Results

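The genes described here encode proteins that switch RhoGTPases on and off: the RhoGAP genes of the Arhgap series, the RhoGEF genes of the Arhgef series and the Dock genes. They were chosen by symbol (Arhgap or Arhgef followed by a digit, or Dock followed by digits only), which gave 73 of the 22548 genes measured. These are 33 RhoGAP genes, 25 RhoGEF genes, 11 Dock genes and 4 antisense genes named after a RhoGAP gene. RhoGTPases such as Cdc42, Rac1 and RhoA are active with GTP and inactive with GDP. Guanine nucleotide exchange factors (GEFs) load them with GTP, GTPase-activating proteins (GAPs) speed up GTP hydrolysis, and Dock proteins are a second, structurally distinct class of exchange factors for Rac and Cdc42. In hematopoietic stem cells (HSCs) this cycle is known for its part in adhesion, migration, homing and cell polarity.

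Expression was measured by RNA-seq in 12 samples of long-term HSCs sorted from C57BL/6 mice, in 3 groups. Young mice (2 to 4 months of age) gave 4 samples (replicates 2 to 5). Aged mice (20 to 26 months) gave 5 control samples (replicates 0 and 2 to 5) and 3 CASIN-treated samples (replicates 1 to 3). CASIN inhibits Cdc42 activity and was used at 5 µM. Per the labels, cells of all groups, controls included, were kept for 16 h in buffered saline with serum at 3% O2. The labels give at least 200 cells for each sample and at least 3 mice for each arm. The methods text gives a larger, pooled number of cells for a library, so the cell number behind a value is uncertain. Of the 13 HSC markers examined, Meis1, which is not part of the sorting gate, was high in all samples (6.54 to 8.53 on the log2 scale). Kit and Ly6a (Sca-1) are part of that gate. Kit was above the lowest value of its sample in only 4 of 12 samples and Ly6a in 4 of 12. Of 13 HSC markers, 4 to 7 were above the lowest value in young, 8 to 13 in aged and 4 to 13 in CASIN-treated samples. Their summed level was 28.8 to 43.4, 24.5 to 41.1 and 32.4 to 46.5. Such sums, here and below, add log2 values and include genes at the lowest value of their sample. Since that value differs between samples, the sums are not comparable amounts of signal. Markers of other cells were not absent: the T cell gene Cd3d lay between 8.26 and 9.98 and the myeloid gene Itgam between 7.48 and 9.17 in every sample, whereas Cd48 was at the lowest value in all. Of the 3 progenitor markers Cd34, Flt3 and Cd48, 0 to 1 were above it in young, 1 to 2 in aged and 0 to 2 in CASIN-treated samples. Over the 6 T cell markers the summed level was 18.9 to 24.4 in young, 19.5 to 24.3 in aged and 16.6 to 31.2 in CASIN-treated samples, and over the 7 endothelial and stromal markers it was 10.4 to 26.1, 15.4 to 35.4 and 17.3 to 22.5. The 5 B cell markers summed to 2.42 to 13.9, 3.18 to 17.7 and 8.70 to 10.9, and the 7 myeloid markers to 13.8 to 18.8, 13.5 to 21.2 and 12.3 to 16.1. For the 4 erythroid markers the sums were 2.62 to 12.7, 2.72 to 15.2 and 2.51 to 11.9. For the 5 megakaryocyte markers they were 3.27 to 11.4, 2.29 to 12.3 and 3.14 to 16.1. Gapdh, Eef1a1 and Actb, which every cell uses and which were picked after their values were seen, were above the lowest value in all 12 samples, but Rpl4 was at it in 5, B2m in 4 and Hprt in 10. A gene at the lowest value is therefore only listed there and is not shown to be absent. Values were read under the gene symbols of the deposited table, and given the levels of Kit, Ly6a, Cd3d and Itgam, whether each row carries the right symbol could not be checked, which limits every gene named below. The part of other cells in the results below was not tested, and in such bulk samples fewer cells of a type and less RNA per cell cannot be told apart.

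All values are log2 expression values that had been quantile normalized, with a highest value of 16.09 in each sample. Genes without signal share the lowest value of their sample, which was 0.43 to 0.67 in young, 0.018 to 0.23 in aged and 0.63, 0 and 0.58 in CASIN-treated samples. A gene above that value is called detected here. Since the lowest value differs between samples, a value detected in 1 sample can lie below the lowest value of another. In CASIN replicate 2, with a lowest value of 0, Arhgap9 at 0.17 and Arhgef37 at 0.04 count as detected. Both lie below the lowest value of each young sample. Of all genes, 6078 to 9673 were detected in young, 11463 to 17621 in aged and 6845, 20013 and 7288 in CASIN-treated samples. The depth is unknown, so these numbers take its place. Levels are compared between genes only roughly, since how the deposited values account for gene length is not stated.

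The promoters of Dock3 and Dock11 are shown because these are the Dock genes with the smallest p values in the comparisons below. Each line gives the 250 bases before the annotated start of the gene, 5′ to 3′ on the strand of the gene, from RefSeq on GRCm38.p6. Capitals mark the GC box (GGGCGG, or CCGCCC on the other strand) and the CCAAT box (CCAAT, or ATTGG on the other strand).
Dock3, chr9:107231910-107232159, minus strand: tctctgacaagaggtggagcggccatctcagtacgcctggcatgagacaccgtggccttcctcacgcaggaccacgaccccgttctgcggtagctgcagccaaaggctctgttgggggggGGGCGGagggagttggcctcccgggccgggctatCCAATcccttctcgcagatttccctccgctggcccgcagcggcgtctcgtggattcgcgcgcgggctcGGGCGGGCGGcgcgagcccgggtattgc
Dock11, chrX:35888582-35888831, plus strand: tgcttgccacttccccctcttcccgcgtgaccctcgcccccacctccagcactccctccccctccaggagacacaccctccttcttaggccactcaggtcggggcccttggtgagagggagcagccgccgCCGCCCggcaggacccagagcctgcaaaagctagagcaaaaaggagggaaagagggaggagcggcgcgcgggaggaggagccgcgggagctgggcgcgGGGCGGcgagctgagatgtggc
The Dock3 window holds 3 GC boxes, 2 of which overlap, and 1 CCAAT box, with a GC content of 68.8%. The Dock11 window holds 2 GC boxes and no CCAAT box, with a GC content of 69.6%. Promoter windows were matched for 55 of the 73 genes (83 windows), and of these windows 48.19% hold a GC box, against 32.74% of all 32851 windows. The CCAAT box was in 22.89% against 33.85%, and the TATA box (TATAAA, or TTTATA on the other strand) in 7.229% against 12.37%. The median GC content was 58.4% for the 83 windows and 52.4% for all. These are matches of letters and were not compared with the expression values.

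Each of the 73 genes was detected in at least 2 of the 12 samples, while 412 of all genes were detected in none. Between 24 and 40 of them were detected in young samples, between 52 and 67 in aged samples, and 29, 71 and 37 in CASIN-treated replicates 1, 2 and 3. Young samples therefore detected 45.2% ± 10.1 of the GTPase regulators (SD, n = 4), aged samples 81.1% ± 9.06 (SD, n = 5) and CASIN-treated samples 62.6% ± 30.5 (SD, n = 3). The same percentages over all genes were 34.3% ± 7.56, 62.6% ± 11.9 and 50.5% ± 33.2, so the GTPase regulators followed the number of genes that each library detected and lay above it in all 12 samples. At or above the 75th percentile of all genes of a sample stood 32.9% ± 4.03 of them in young, 36.4% ± 5.18 in aged and 41.1% ± 8.98 in CASIN-treated samples. The median SD of the GTPase regulators over the 12 samples was 2.27 on the log2 scale, compared to 1.82 over all genes. Their median mean level was also higher (2.95 against 1.68), and the 2 sets were not matched for level or detection, so the wider SD is not shown to be a trait of these genes.

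**Figure D1:**
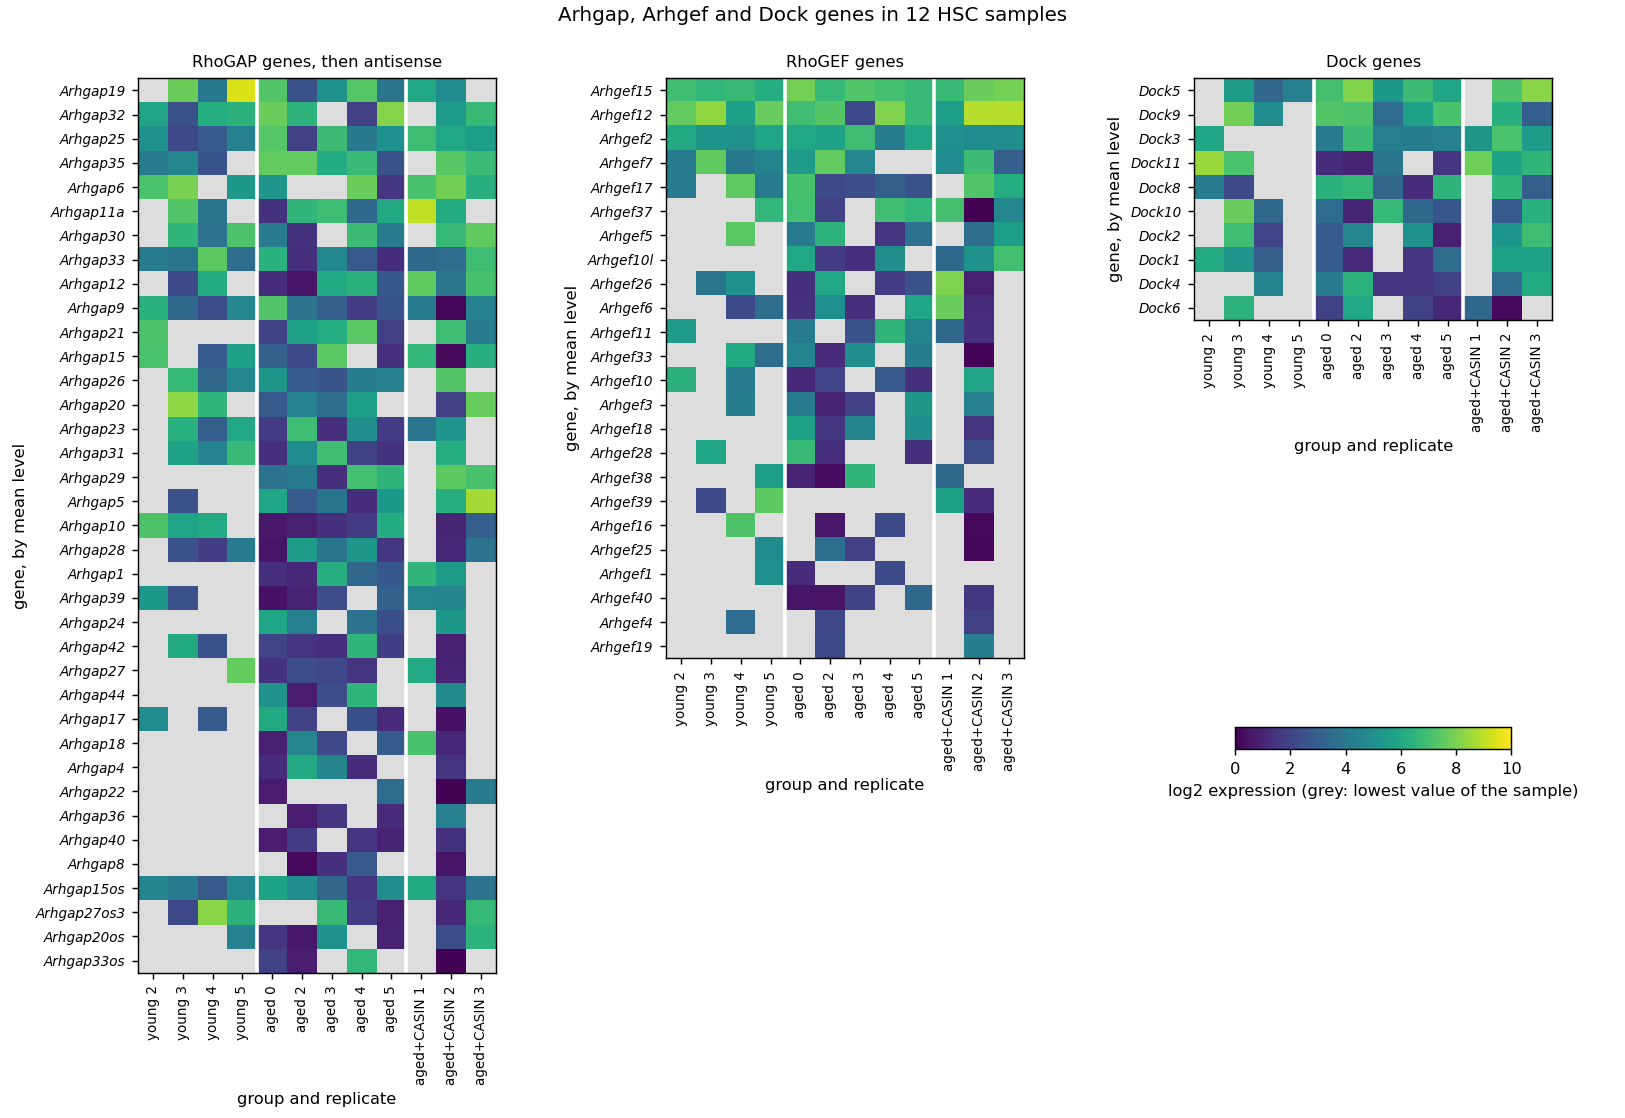
Log2 expression of 71 of the 73 genes (rows, sorted by mean level within RhoGAP, antisense, RhoGEF and Dock genes) in the 12 samples (columns, with white lines between young, aged and aged+CASIN samples). Grey marks the lowest value of a sample and fills more of the young columns (24 to 40 of the 73 genes detected) than of the aged columns (52 to 67 detected).

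**Figure D2:**
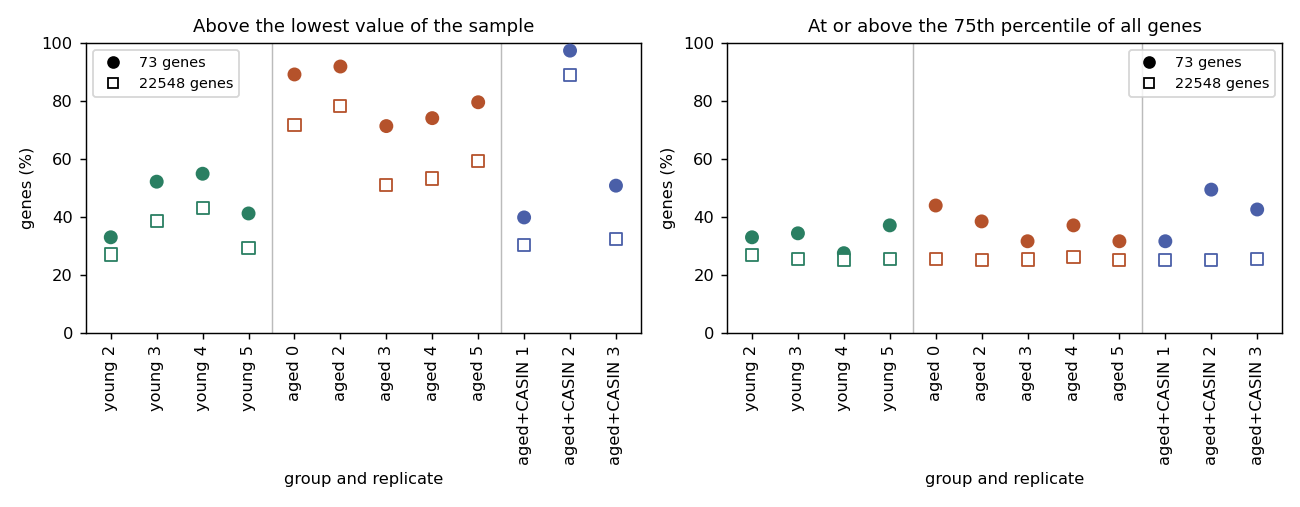
Percentage of genes above the lowest value of the sample (left) and at or above the 75th percentile of all genes (right), for the 73 GTPase regulators (filled circles) and all 22548 genes (open squares) in each sample. The detected percentage of the GTPase regulators lies above that of all genes in each of the 12 samples and is highest in CASIN replicate 2 (71 of 73 genes).

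By class, between 11 and 19 of the 33 RhoGAP genes were detected in young samples, between 26 and 31 in aged samples and between 13 and 33 in CASIN-treated samples. Of the 25 RhoGEF genes these were 8 to 14, 13 to 22 and 8 to 23, and of the 11 Dock genes 2 to 9, 8 to 11 and 4 to 11. In young samples 15 of the 73 genes (20.5%) were at the lowest value in all 4 libraries, compared to 34.6% of all genes. These were Arhgap1, Arhgap4, Arhgap8, Arhgap18, Arhgap22, Arhgap24, Arhgap29, Arhgap33os, Arhgap36, Arhgap40, Arhgap44, Arhgef10l, Arhgef18, Arhgef19 and Arhgef40. Arhgef39 was detected in none of the aged samples, and Arhgef1, which couples G12/13-type receptors to RhoA in blood cells, in none of the CASIN-treated samples. That is 1 of 73 genes (1.37%) in each group, compared to 6.12% of all genes in aged and 9.48% in CASIN-treated samples. Arhgef1 was detected in 1 young sample (5.03, replicate 5) and in 2 aged samples (1.29 and 2.23).

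Of the 73 genes, 7 (9.59%) were detected in all 12 samples, as were 9.50% of all genes. These are 3 exchange factors for RhoA (Arhgef15, Arhgef12 and Arhgef2), 3 RhoGAP genes (Arhgap25, Arhgap33 and Arhgap9) and the antisense gene Arhgap15os. The highest mean level belonged to Arhgef15 (mm10, chr11:68943155-68957480, minus strand), a GEF best known from blood vessels and neurons. Its level was 6.93, 6.63, 6.77 and 6.20 in young, 7.90, 6.69, 7.28, 6.99 and 6.72 in aged and 6.77, 7.72 and 7.90 in CASIN-treated samples. Arhgef15 was thus even across the groups, with a mean of 7.04 and an SD of 0.54 over the 12 samples. Of the 453 genes detected in all samples with a mean within 0.5 of it, 1.99% had a smaller SD.

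Arhgef2 (GEF-H1, a RhoA exchange factor held on microtubules, chr3:88605966-88648052, plus strand) had a level of 6.06, 5.19, 5.12 and 5.89 in young, 5.97, 5.80, 6.88, 4.24 and 5.91 in aged and 5.01, 4.86 and 4.99 in CASIN-treated samples. Its mean was 5.49 with an SD of 0.71, and 0.209% of the 479 genes of similar mean had a smaller SD. The CASIN-treated values lay close together and just under the lowest young value, and they overlapped with the aged ones. Arhgef12 (LARG, which links G12/13-type receptors to RhoA) had a level of 7.58, 8.33, 5.64 and 7.69 in young, 6.95, 7.34, 2.25, 8.06 and 6.72 in aged and 5.62, 8.90 and 8.87 in CASIN-treated samples. It was high in all libraries but aged replicate 3, and its SD of 1.84 was wider than that of Arhgef15. Arhgef15, Arhgef12 and Arhgef2 also had the highest means of the 73 genes, followed by Dock5, a Rac exchange factor, and Arhgap19, a RhoGAP that acts on RhoA in mitosis.

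The 3 RhoGAP genes detected in all samples follow. Arhgap25, a Rac-directed GAP of leukocytes, had a level of 5.14, 2.22, 2.85 and 4.37 in young, 7.34, 1.88, 6.86, 4.04 and 5.05 in aged and 6.89, 5.99 and 5.59 in CASIN-treated samples. All CASIN-treated values were above all young values, while the aged values spanned both. Arhgap9, a GAP expressed mainly in blood cells, had a level of 6.39, 3.35, 2.40 and 4.64 in young, 7.29, 3.82, 3.01, 1.80 and 2.54 in aged and 4.15, 0.17 and 4.39 in CASIN-treated samples. Arhgap33, a GAP with a sorting-nexin-type lipid-binding domain, had a level of 4.11, 3.88, 7.49 and 3.59 in young, 6.39, 1.36, 4.68, 2.79 and 1.32 in aged and 3.34, 3.48 and 6.91 in CASIN-treated samples. For Arhgap9 and Arhgap33 the groups overlapped fully.

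**Figure D3:**
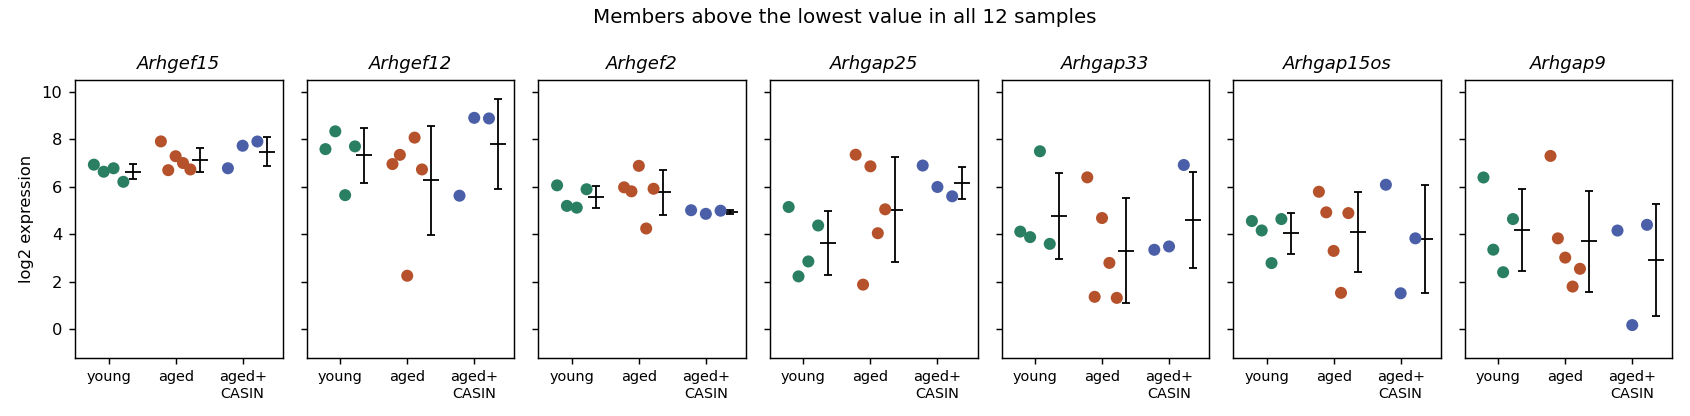
Log2 expression of the 7 genes detected in all 12 samples, with 1 point per sample and, beside each group, its mean and SD. Arhgef15 (SD 0.54 over the 12 samples) and Arhgef2 (SD 0.71) lie in narrow bands, while Arhgef12 (SD 1.84) has 1 low aged sample.

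Young and aged HSCs were compared to ask which GTPase regulators differ with age. None of the 73 genes passed an adjusted p of 0.05 (limma over all genes, smallest adjusted p of the 73 genes 0.764), and 0.0177% of all genes did. At an unadjusted p under 0.05 there were 4 (5.48%), all lower in young, compared to 5.33% of all genes in either direction (3.2% lower and 2.13% higher in young). A share this close to that of all genes is not a result about the GTPase regulators. The 95% confidence intervals were wide, with a median half-width of 3.16 on the log2 scale, and the 4 genes are therefore described by their values.

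Arhgap29, a GAP for RhoA that acts downstream of Rap1 in endothelial cells (chr3:121952541-122016753, plus strand), was at the lowest value in all 4 young samples and stood at 3.82, 4.12, 1.36, 6.99 and 6.50 in aged samples. No young value reached the aged range, and the difference was -4.00 ± 1.48 (young minus aged, SE; limma adjusted p = 0.764). Arhgef18 (p114RhoGEF, a RhoA exchange factor of epithelial junctions, chr8:3393006-3456601, plus strand) was at the lowest value in all young samples as well. In aged samples it stood at 5.72, 1.57, 4.54 and 4.96 and in replicate 4 at the lowest value, so that the groups met at the bottom (difference -2.84 ± 1.02, limma adjusted p = 0.764). Arhgap24 (FilGAP, a Rac GAP bound to filamin A, chr5:102481391-102897937, plus strand) showed the same layout, with no detection in young samples and 5.92, 4.31, 3.82 and 2.44 in the aged samples other than replicate 3. Its difference was -2.78 ± 1.21 (limma adjusted p = 0.764) and shrank to -0.36 in a fit with the number of detected genes as a covariate.

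Dock3, a Rac exchange factor best known from neurons, whose promoter is given above (chr9:106892825-107231909, minus strand), was detected in 1 young sample (5.92, replicate 2) and in all aged samples (4.09, 6.84, 4.27, 4.24 and 4.37). Among the aged values 4 were almost equal and replicate 2 stood apart. The difference was -2.89 ± 1.15 (limma adjusted p = 0.764). For these 4 genes, as for all others, young libraries also had fewer genes detected (6078 to 9673 against 11463 to 17621), and the part of this in the differences was not tested beyond the covariate fit. In that fit the difference was -2.69 for Arhgap29 and -2.265 for Dock3. For Arhgef18 it was -2.26 or lower in each of 9 alternative fits, the covariate fit among them.

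Between young and aged samples, 2 of the 73 genes did not overlap with young lower, compared to 1.61% of all genes, and none with young higher, compared to 0.341%. Arhgap29 was one and Arhgap1 the other. The median difference of the 73 genes was -0.20, that of all genes -0.02. By sign, 45 of the 73 genes were lower in young (30 when samples were centred on the genes detected in all of them, which adds 0.45 to all young minus aged differences and turns the median to 0.26). Of all 22548 genes, 11391 were lower in young as deposited and 8118 when centred. Below the median of all genes lay 45 of the 73 genes and 9 of the 11 Dock genes. Centring cannot change these counts, since it moves all genes alike. With a common lowest value for all samples they were 43 and 9. Of the Dock genes 9 of 11 were lower in young (6 of 11 when centred, median -0.73 as deposited), and of the RhoGAP genes 20 of 33 (14 when centred). The RhoGEF genes split evenly, with 13 of 25 lower in young (9 when centred).

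Aged HSCs with and without CASIN were compared to ask which GTPase regulators respond when Cdc42 activity is lowered. Again 0 of 73 genes passed an adjusted p of 0.05 (limma, smallest adjusted p 0.948), compared to 0.0222% of all genes. At an unadjusted p under 0.05 there were 2 (2.74%), 1 in each direction, compared to 4.4% of all genes (2.48% higher and 1.92% lower in treated samples). Dock11 (zizimin 2, a Cdc42 exchange factor of lymphoid and myeloid cells, chrX:35888832-36076562, plus strand, promoter given above) stood at 1.29, 1.01, 3.89 and 1.54 in aged samples, with replicate 4 at the lowest value, and at 7.80, 5.75 and 6.56 in CASIN-treated samples. All 3 treated values were above all 5 aged ones, with a difference of 5.11 ± 1.80 (SE, 95% CI 1.13 to 9.10, limma adjusted p = 0.948). In young samples Dock11 was either high (8.49 and 7.15, replicates 2 and 3) or at the lowest value (replicates 4 and 5).

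Arhgef18, the second gene, was at the lowest value in CASIN-treated replicates 1 and 3 and at 1.52 in replicate 2, compared to the aged values given above (difference -2.49 ± 1.12, limma adjusted p = 0.948). Of the 73 genes, 1 did not overlap with treated samples higher (Dock11, against 0.683% of all genes), and 1 with treated samples lower (against 1.43%). The latter was Arhgap42, a RhoA GAP of vascular smooth muscle, with 2.05, 1.54, 1.36, 6.54 and 1.84 in aged samples, 0.90 in CASIN replicate 2 and the lowest value in replicates 1 and 3 (difference -1.96 ± 1.42, limma adjusted p = 0.948). The median difference over the 73 genes was -0.11 compared to -0.04 over all genes, and 36 of them were higher in treated samples (43 when centred, which adds 0.35 and turns the median to 0.24). Of all 22548 genes, 10903 were higher in treated samples as deposited and 13809 when centred.

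CASIN-treated aged and young HSCs were compared to see where treated cells differ from young ones. Adjusted, 0 of 73 genes passed (limma, smallest adjusted p 0.853), and so did 0% of all genes, while 968 genes had an unadjusted p under 0.05. Among the 73 genes there were 5 of these (6.85%), compared to 4.29% of all genes, all 5 higher in treated samples (2.9% of all genes were higher and 1.39% lower). Arhgap29 and Dock3 were among them, as in the comparison of young with aged samples, which shares the young samples with this one. Arhgap29 stood at 7.47 and 7.11 in CASIN replicates 2 and 3 and at the lowest value in replicate 1 (difference to young 4.51 ± 1.68, limma adjusted p = 1). Dock3 was detected in all 3 treated samples at 5.28, 7.17 and 5.52 (4.11 ± 1.30, limma adjusted p = 0.921), and the young replicate 2 lay within this range.

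Arhgef10l, a RhoA exchange factor (chr4:140514485-140666012, minus strand), was detected in no young sample and in all treated ones (3.34, 5.10 and 7.03), with aged values of 5.97, 1.77, 1.36 and 4.95 and the lowest value in aged replicate 5. Its difference between treated and young samples was 4.60 ± 1.35 (95% CI 1.62 to 7.57, limma adjusted p = 0.853), and the groups did not overlap. Arhgap5 (p190B, a RhoA GAP, chr12:52503972-52571975, plus strand) stood at 6.25 and 8.63 in CASIN replicates 2 and 3 and at the lowest value in replicate 1, whereas 1 young sample had a value above the lowest (2.50). The difference was 4.11 ± 1.69 (limma adjusted p = 1) and 2.38 without CASIN replicate 3. Arhgap1 had a difference of 3.65 ± 1.46 (limma adjusted p = 1) and 2.46 without CASIN replicate 1.

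No overlap between treated and young samples was seen for Arhgap25 and Arhgef10l with treated samples higher (1.4% of all genes) and for Arhgef2 with treated samples lower (0.674% of all genes). The difference was 2.51 ± 1.23 for Arhgap25 and -0.61 ± 0.58 for Arhgef2 (limma adjusted p = 1 for both). Over the 73 genes the median difference was 0.35 compared to -0.09 over all genes, and 44 of them were higher in treated samples (42 when centred). Of all 22548 genes, 10218 were higher in treated samples as deposited and 9128 when centred. Of the Dock genes 9 of 11 were higher (9 when centred, median 1.69), and of the RhoGAP genes 21 of 33 (20 when centred). The 13 of 25 RhoGEF genes that were higher became 12 of 25 when centred.

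**Figure D4:**
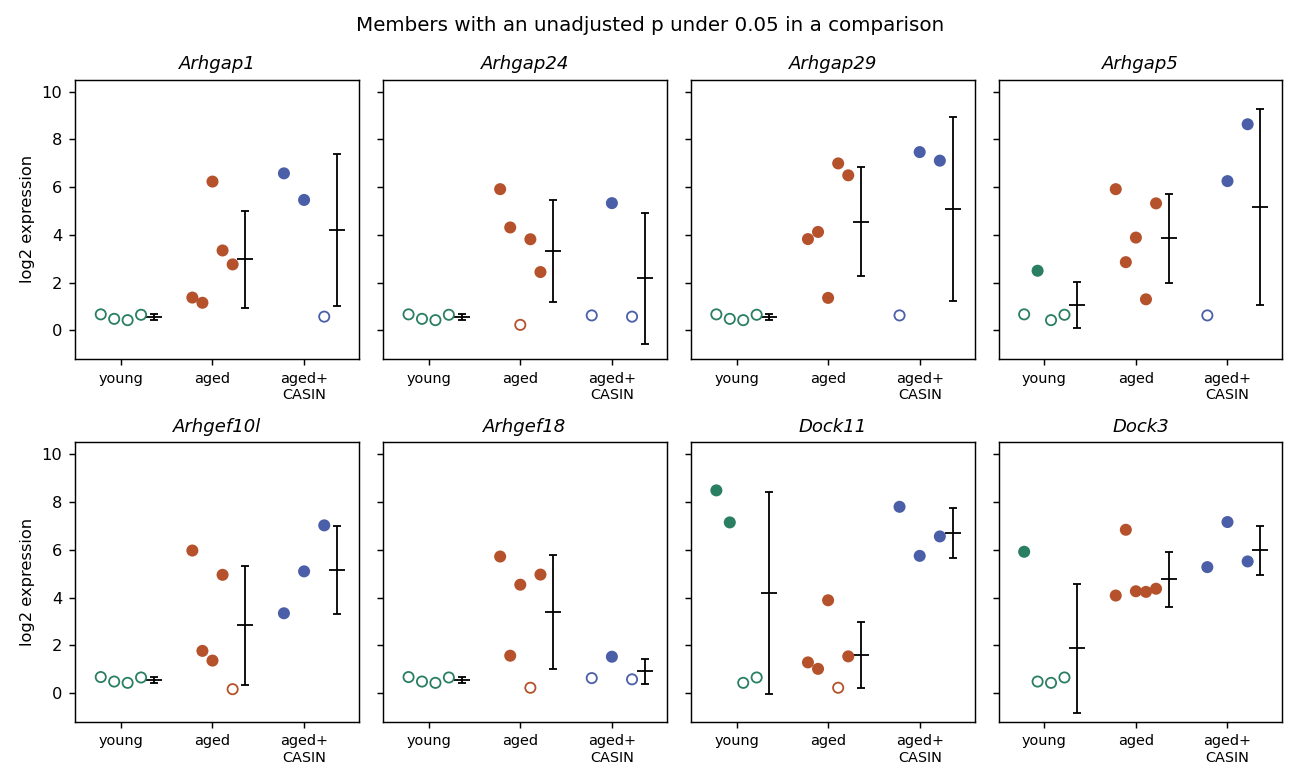
Log2 expression of 8 genes, those whose unadjusted p was under 0.05 in at least 1 comparison, with 1 point per sample (open points at the lowest value of the sample) and the mean and SD of each group. Young samples sit at the lowest value for Arhgap1, Arhgap24, Arhgap29, Arhgef10l and Arhgef18, and Dock11 is lower in the 5 aged than in the 3 CASIN-treated samples.

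**Figure D5:**
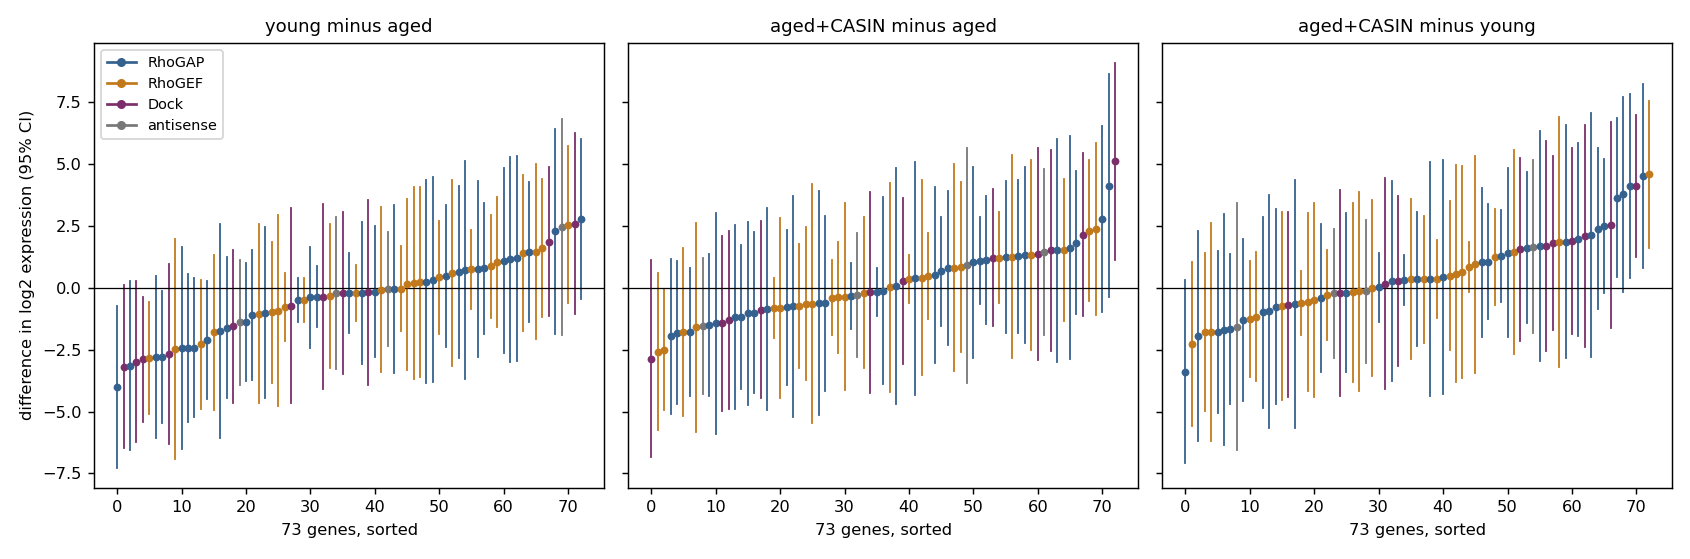
Differences in log2 expression of the 73 genes with 95% confidence intervals from limma, sorted within each comparison and coloured by class. The genes spread around 0 in each panel, with medians of -0.20, -0.11 and 0.35 and median half-widths of the intervals of 3.16, 3.44 and 3.60.

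Of the regulators that act on Cdc42, the target of CASIN, 11 genes were chosen as a group, which need not hold all of them. Among the GAPs, Arhgap1 (Cdc42GAP or p50RhoGAP, chr2:91649860-91672326, plus strand) was at the lowest value in all 4 young samples. It stood at 1.38, 1.16, 6.23, 3.35 and 2.76 in aged and at 6.58 and 5.46 in CASIN replicates 1 and 2, with replicate 3 at the lowest value. All aged values were above all young values, and the difference between young and aged samples was -2.42 ± 1.28 (limma adjusted p = 0.764). Arhgap17 (Rich1), a GAP of cell junctions, was detected in 2 young samples (4.85 and 2.92), in 4 aged samples (1.21 to 6.07) and in 1 treated sample (0.48). Arhgap21, a GAP of the Golgi, was detected in 1 young sample at 7.26, in all aged samples between 1.90 and 7.44 and in CASIN replicates 2 and 3 at 6.89 and 4.15. Arhgap31 (CdGAP), which acts on Cdc42 and Rac1, was detected in 3 young samples (5.76, 4.43 and 6.79), in all aged samples (1.38 to 6.93) and in 1 treated sample (6.18).

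Among the Cdc42 exchange factors, Arhgef7 (β-Pix), a partner of Pak kinases, was detected in all young samples (4.11, 7.57, 4.04 and 4.50), in 3 aged samples (5.36, 7.59 and 4.62) and in all treated samples (4.86, 6.86 and 3.03). Arhgef6 (α-Pix), its hematopoietic relative, was detected in 2 young samples (2.26 and 3.59), in 4 aged samples (1.36 to 5.91) and in 2 treated samples (7.73 and 1.31). The groups overlapped for both.

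Dock8, a Cdc42 exchange factor that immune cells need, was detected in 2 young samples (4.11 and 2.22), in all aged samples (6.43, 6.66, 3.30, 1.30 and 6.51) and in CASIN replicates 2 and 3 (6.57 and 3.03). Dock9 was detected in 2 young samples (7.81 and 4.89), in all aged samples (7.31, 7.22, 3.49, 5.74 and 7.14) and in CASIN replicates 2 and 3 (6.29 and 3.03). Dock10 was detected in 2 young samples (7.70 and 3.35), in all aged samples (1.05 to 6.71) and in CASIN replicates 2 and 3 (2.83 and 6.34). With Dock11 these are the 4 Dock genes of the group. Over the 11 Cdc42-directed genes, 7 were lower in young than in aged samples (5 when centred) and 4 were higher with than without CASIN (5 when centred), and 0 passed the adjusted test in any comparison.

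Among Dock genes that act on Rac, Dock5 had the highest mean. It was detected in 3 young samples (5.51, 3.29 and 4.37), in all aged samples (7.04, 8.11, 5.32, 6.87 and 5.88) and in CASIN replicates 2 and 3 (7.20 and 8.21), with a difference between young and aged samples of -3.18 ± 1.5 (SE; limma adjusted p = 0.764). Dock2, the Rac exchange factor of leukocyte migration, was detected in 2 young samples (6.91 and 2.03), in 4 aged samples (0.89 to 5.10) and in CASIN replicates 2 and 3 (5.27 and 6.88). In CASIN replicate 1, which detected 29 of the 73 genes, 7 of the 11 Dock genes were at the lowest value, and Dock11 at 7.80 was the highest of the 4 that were not. Arhgap19 was detected in 3 young samples (7.76, 4.04 and 9.47), in all aged samples (2.49 to 7.37) and in CASIN replicates 1 and 2 (5.97 and 4.84). Arhgap35 (p190A), the relative of Arhgap5, was detected in 3 young samples (4.11, 4.62 and 2.54), in all aged samples (7.58, 7.61, 6.15, 6.79 and 2.49) and in CASIN replicates 2 and 3 (7.40 and 6.81).

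Other Rac-directed Docks showed no separation of the groups either. Dock1 (Dock180), which works with Elmo and Crk adaptors, was detected in 3 young samples (6.12, 5.27 and 3.03), in 4 aged samples (1.21 to 3.59) and in CASIN replicates 2 and 3 (5.77 and 5.74). Dock4 was detected in 1 young sample (4.50), in all aged samples (1.53 to 6.45) and in CASIN replicates 2 and 3 (3.48 and 6.09). Dock6 was detected in 1 young sample (6.46), in 4 aged samples (1.16 to 5.99) and in 2 treated samples (3.34 and 0.21).

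The remaining RhoGAP genes varied from library to library. Arhgap32, a GAP of neurons, was detected in all young samples (5.86, 2.50, 6.18 and 6.41), in 4 aged samples (1.97 to 8.16) and in CASIN replicates 2 and 3 (5.48 and 6.75). Arhgap10, a relative of the GAP GRAF, stood at 7.24, 5.83 and 6.12 in young samples other than replicate 5, while 4 of the 5 aged values lay between 0.67 and 1.80 and the fifth was 6.17. Among treated samples, Arhgap10 was at the lowest value in replicate 1 and at 1.02 and 3.03 in replicates 2 and 3. Arhgap6, a RhoA GAP, was detected in all treated samples (7.12, 7.87 and 6.29), in 3 young samples (7.19, 8.01 and 5.33) and in 3 aged samples (5.22, 7.75 and 1.57). Its aged values were thus either high or near the lowest value. Arhgap11a, a RhoA GAP of dividing cells, was detected in 2 young samples (7.30 and 3.88), in all aged samples (1.46 to 6.88) and in CASIN replicates 1 and 2 (9.05 and 6.15). Arhgap12 was detected in all treated samples (7.58, 3.98 and 7.08), in 2 young samples (2.22 and 6.14) and in all aged samples (0.58 to 6.44). Arhgap4, a GAP of blood cells, was detected in no young sample, in 4 aged samples (1.29, 6.08, 4.54 and 1.30) and in 1 treated sample (1.51). Arhgap22, Arhgap36, Arhgap40 and Arhgap8 were detected in 4 to 5 samples each and did not exceed 4.37.

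Of the remaining RhoGEF genes, Arhgef17, a RhoA exchange factor, was detected in 3 young samples (4.11, 7.51 and 4.15), in all aged samples (2.23 to 7.10) and in CASIN replicates 2 and 3 (7.30 and 6.19). Arhgef37 was detected in 1 young sample (6.63), in 4 aged samples (6.98, 1.91, 6.94 and 6.62) and in all treated samples (7.04, 0.04 and 4.62). Arhgef11 (PDZ-RhoGEF), which like Arhgef12 links G12/13-type receptors to RhoA, was detected in 1 young sample (5.41), in 4 aged samples (2.48 to 6.54) and in CASIN replicates 1 and 2 (3.34 and 1.33). Arhgef26 (SGEF), an exchange factor for RhoG, reached 8.08 in CASIN replicate 1 and was detected in 2 young samples (3.92 and 5.15) and 4 aged samples (1.33 to 5.95). Arhgef5 was detected in 1 young sample (7.46), in 4 aged samples (1.53 to 6.47) and in CASIN replicates 2 and 3 (3.57 and 5.59). Arhgef19 (2.26 in aged replicate 2 and 4.24 in CASIN replicate 2) and Arhgef4 (3.49, 2.16 and 1.90 in 1 sample of each group) were, with Arhgef1, the RhoGEF genes detected in the fewest samples.

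The GTPases themselves and the rest of the pathway were read from lists of 21 RhoGTPases, 3 RhoGDIs (which keep GTPases inactive in the cytosol), 5 Dock partners, 36 other RhoGEFs, 28 other RhoGAPs and 44 effectors. None of the listed genes passed the adjusted test in any comparison. Unadjusted, 1 of the 21 RhoGTPases had a p under 0.05 when young samples were set against aged (5.33% of all genes), 1 when treated were set against aged (4.4%) and 2 when treated were set against young (4.29%). Cdc42 was detected in 3 young samples (6.15, 5.27 and 3.59), in all aged samples (4.62, 3.57, 5.59, 4.24 and 6.46) and in CASIN replicates 2 and 3 (6.39 and 7.25), with a difference between treated and aged samples of -0.14 (limma adjusted p = 0.999) that turned to 0.21 when samples were centred and ranged from -1.39 to 1.92 with 1 sample left out. Rac1 stood at 7.27, 2.85, 6.71 and 4.15 in young and 0.86, 6.39, 6.11, 5.10 and 1.54 in aged samples. In treated samples Rac1 was at the lowest value in replicates 1 and 3 and at 0.29 in replicate 2, below all young and aged values (difference to aged -3.50, limma adjusted p = 0.948). Rac2, the Rac of blood cells, was detected in all samples, at 3.11 to 7.42 in young, from 5.01 upward in aged (median 7.75) and 6.34 to 7.05 in treated samples. Rhoa was likewise detected in all, at 2.78 to 7.55, 2.46 to 7.10 and 3.92 to 7.19.

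Arhgdib, the RhoGDI of blood cells, was at or near the lowest value in all young and aged samples (0.67 at most) and in CASIN replicate 1, and at 6.18 and 7.36 in CASIN replicates 2 and 3 (difference to aged 4.42, limma adjusted p = 0.809). A fit without CASIN replicate 1 drops the only treated sample without a high value and leaves replicates 2 and 3. It gave 6.47 (limma adjusted p = 0.000397), which is not support for a difference. Among the 504 refits described below, no other gene had an adjusted p under 0.05. Among the Dock partners, the adaptor Crk stood at 7.24, 7.82 and 7.16 in treated samples, above all 5 aged values of 1.39 to 5.92 (4.62, limma adjusted p = 0.948). Elmo2, the scaffold of Rac-directed Docks, stood at 4.55, 7.54, 6.14 and 7.02 in young and 5.44, 3.85, 2.79 and 1.21 in aged samples, with aged replicate 4 at the lowest value (3.61, limma adjusted p = 0.671). Among the effectors, the kinase gene Pak7 was at the lowest value in all young samples and at 2.05, 4.24, 5.98, 5.10 and 7.03 in aged samples (young minus aged -4.32, limma adjusted p = 0.377). In treated samples Pak7 was at 1.90 in replicate 2 and at the lowest value in the others (difference to aged -3.84, limma adjusted p = 0.682). The GAP gene Stard13 stood at 7.74, 6.15 and 8.15 in treated samples, compared to 6.02 in young replicate 4 and the lowest value in the other young samples (5.39, limma adjusted p = 0.926).

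The 4 antisense genes are annotated on the strand opposite to a RhoGAP gene. Arhgap15os, Arhgap20os and Arhgap27os3 overlap the span of their partner. Exons were not compared, and it is not stated whether the counting used strand, so how far the pairs share reads is not known. Their values were not the same: in young replicate 3 Arhgap20 stood at 8.32 with Arhgap20os at the lowest value. In young replicate 5 Arhgap20os stood at 4.37 with Arhgap20 at the lowest value. Arhgap33os does not overlap Arhgap33. Arhgap15os was detected in all samples, at 2.78 to 4.64 in young, 1.53 to 5.79 in aged and 1.51 to 6.08 in treated samples. Its partner Arhgap15, a Rac GAP of blood cells, was detected in 3 young samples (7.15, 2.85 and 5.63), in 4 aged samples (1.41 to 7.44) and in all treated samples (6.63, 0.25 and 6.29). Arhgap20os was detected in 7, Arhgap27os3 in 8 and Arhgap33os in 4 of the 12 samples. Of the 73 genes, 6 lie on chromosome 11: Dock2, Arhgap44, Arhgef15, Arhgap23, Arhgap27 and Arhgap27os3. They were detected in 8, 5, 12, 10, 7 and 8 samples, with means over the 12 samples of 3.06, 1.93, 7.04, 3.54, 2.05 and 2.96.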

How the data were processed

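The RNA-seq samples were 4 of young, 5 of aged and 3 of aged CASIN-treated HSCs, grouped by their labels. The authors made libraries with a single-cell kit, trimmed paired-end reads, aligned them to mm10 with TopHat and used Cufflinks. Versions and the step to the final values are not given in the sources used here. The authors deposited log2 expression values, quantile normalized, for 22548 genes. They hold no counts, so the depth and the counting error of each sample are unknown.

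From these values, limma 3.58.1 in R 4.3.3 was fitted once to all 12 samples with 3 groups and no filter (two-sided, Benjamini-Hochberg over all genes, threshold 0.05), and was tested on simulated data. Replicates are separate samples in the labels, and p-values measure only the spread between these samples, which may be technical. Groups were called not overlapping after values below 0.67, the highest of the lowest values of the samples, were set to it. The genes and lists were chosen with earlier results of these data known. Named genes are those with an unadjusted p under 0.05 in a comparison, those detected in all 12 samples, the 5 highest means and the Cdc42-directed group. From the pathway, Cdc42, Rac1, Rac2, Rhoa and genes with an unadjusted p under 0.01 are named. Other members, such as Arhgap42 and Arhgap35, were described after their values were seen. Positions are from GENCODE for mm10, and all 73 genes matched. The values of 2 of the 73 genes are not reported here, although all counts cover 73.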

Additional observations from a re-analysis of the deposited data

Results flagged for a closer look

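For 26 of the genes named above (those with an unadjusted p under 0.05, detected in all samples, of the highest means or directed at Cdc42) and for the number of GTPase regulators detected, 54 groups of 4 or 5 samples were examined for a sample far from the others, by the gap to its nearest neighbour as a share of the range of the group. In 7 of them this share exceeded the 95% critical value of Dixon, which chance exceeds in about 1 of 20 groups when values are normally distributed. Many groups here hold samples at their lowest value, so the 7 of 54 cannot be set against that rate. In young samples these were Arhgap21 (0.967, replicate 2 at 7.26 and the next value at 0.65), Dock3 (0.959, replicate 2 at 5.92), Arhgap5 (0.883, replicate 3 at 2.50), Arhgef7 (0.868, replicate 3 at 7.57 and the next at 4.50) and Arhgap33 (0.867, replicate 4 at 7.49 and the next at 4.11). In aged samples they were Dock3 (0.897, replicate 2 at 6.84 and the next at 4.37) and Arhgef12 (0.770, replicate 3 at 2.25 as the lowest and the next at 6.72). For Arhgap21, Dock3 and Arhgap5 in young samples all other values were at the lowest value of their sample.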

How the results depend on the processing

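The 0 of 73 genes with an adjusted p under 0.05 stayed 0 in each comparison under 9 alternatives (a common lowest value, centring, genes detected in at least 3 samples, a pseudocount of 0.1, array weights, limma-trend, 2 groups only, a detection covariate, the replicate block) and in 12 fits without 1 sample each. Counts at an unadjusted p under 0.05 moved by over 1.5 times. Between young and aged samples the 4 genes became 8 with 2 groups only and 1 with the detection covariate, and ranged from 3 to 9 with 1 sample left out (9 without aged replicate 5, 7 without CASIN replicate 1). Between treated and aged samples the 2 became 1 with the filter and with 2 groups only, and ranged from 1 to 5 with 1 sample left out (5 without aged replicate 4, and 1 without young replicate 2 or 3 or aged replicate 3 or 5). Between treated and young samples the 5 ranged from 4 to 7. With the replicate block the counts were 5 between treated and aged and 8 between treated and young. Same-numbered samples did not deviate together (8 pairs, correlations -0.033 to 0.0576, against -0.0469 to 0.0332 for 39 other pairs), so the block is a number only. The causes were not tested, apart from the smaller set of samples or genes that some alternatives use. For genes named with a difference, 24 differences were refitted 21 times each, 13 of them chosen after seeing the data. The direction changed only for Cdc42 between treated and aged samples, which moved from -0.14 to 0.21 (centred), 0.34 (detection covariate), 2.30 (replicate block), 0.03 (without aged replicate 3) and 0.25 (without aged replicate 5), and ranged from -1.39 (without CASIN replicate 3) to 1.92 (without CASIN replicate 1). The adjusted p fell under 0.05 only for Arhgdib between treated and aged samples, with 6.47 and an adjusted p of 0.000397 without CASIN replicate 1. That replicate was the only treated sample without a high Arhgdib value. Others moved by over 1.5 times, for example with the block (Dock11 with against without CASIN 2.28; between treated and young samples Arhgap29 7.72 and Arhgap1 2.29), with the detection covariate (Arhgap24 between young and aged samples -0.36, Dock5 -1.46) and when a library was left out (Arhgap5 between treated and young samples 2.38 without CASIN replicate 3 and 6.38 without CASIN replicate 1, Arhgap42 between treated and aged samples -0.996 without aged replicate 4). The spread between few samples limits the tests: the median half-width of the 95% intervals was 3.16 to 3.60 log2 units.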
